A study of Homo sapiens with 6 samples.

Results

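The 6 genes described here encode the enzymes that set the phosphorylation of IKAROS: the subunits of casein kinase 2 (CSNK2A1, CSNK2A2 and CSNK2B) and the catalytic subunits of protein phosphatase 1 (PPP1CA, PPP1CB and PPP1CC). They were chosen by name among the 60640 gene identifiers of the tables, and each name matched a single identifier. All 6 passed the filter on low values (a mean FPKM over the 6 libraries of 1 or more), which 12652 genes passed. FPKM counts sequenced fragments relative to transcript length and library depth, so levels can be compared between genes. Polyadenylated RNA was sequenced from Molt4 cells, a human cell line from T-cell acute lymphoblastic leukemia (T-ALL). The 3 wild type libraries come from cells that served as the control of the CRISPR knockout. The 3 IK-KO libraries come from Molt4 cells in which CRISPR-Cas was aimed at IKZF1, the gene of IKAROS. Both kinds of cell were purchased ready-made and grown without further treatment. The paper shows a western blot of different knockout clones, but the labels name no clone, so which was sequenced, or whether clones were mixed, is unknown. Differences between the sequenced lines that arose in cloning therefore cannot be told apart from the effect of the edit. Nothing states that the libraries are separate cultures.

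CK2 is a serine/threonine kinase that is active without a second messenger. Its tetramer holds a pair of catalytic subunits, alpha (CSNK2A1) or alpha prime (CSNK2A2), around a dimer of the regulatory beta subunit (CSNK2B), which steers substrate choice and stability. CK2 phosphorylates IKAROS at many sites, which lowers its DNA binding and makes the protein less stable. PP1 binds IKAROS and removes these phosphates. The PP1 catalytic subunits alpha (PPP1CA), beta (PPP1CB) and gamma (PPP1CC) are near-identical in their core and take their targets from a large set of regulatory subunits. None of this is visible in RNA: the tables hold transcript levels, not kinase or phosphatase activity. In bulk RNA, a change per cell and a change in the share of cells that carry a transcript cannot be told apart.

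The promoters of these genes are shown because IKAROS binds DNA through a GGGAA core, and the comparison asks what its targeting does to the genes that modify it. RefSeq windows of 300 bases (GRCh38.p14, 250 bases before to 50 after a start site) were found for 5 of the 6 genes, all but PPP1CA, with 2 windows for PPP1CB. GGGAA, or TTCCC on the other strand, occurs in 65.0% of all 35116 windows of that length. Printed 5′ to 3′ on the strand of the gene, with each match in capitals, are the window of the gene whose RNA rose (CSNK2B, chr6:31665830-31666129, plus strand), that of the major catalytic subunit of CK2 (CSNK2A1, chr20:543741-544040, minus strand) and the window with the most matches (PPP1CB, chr2:28751354-28751653, plus strand).
CSNK2B: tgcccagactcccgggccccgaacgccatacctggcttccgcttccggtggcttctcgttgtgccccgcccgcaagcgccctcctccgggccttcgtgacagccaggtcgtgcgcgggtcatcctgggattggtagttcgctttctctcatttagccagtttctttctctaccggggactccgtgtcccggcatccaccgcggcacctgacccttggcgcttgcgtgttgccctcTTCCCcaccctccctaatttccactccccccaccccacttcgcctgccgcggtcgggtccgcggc
CSNK2A1: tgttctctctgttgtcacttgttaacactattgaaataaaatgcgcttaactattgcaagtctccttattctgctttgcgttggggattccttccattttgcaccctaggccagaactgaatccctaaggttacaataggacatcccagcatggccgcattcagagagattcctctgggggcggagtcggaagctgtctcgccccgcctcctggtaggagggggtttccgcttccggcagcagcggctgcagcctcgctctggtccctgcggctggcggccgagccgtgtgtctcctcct
PPP1CB: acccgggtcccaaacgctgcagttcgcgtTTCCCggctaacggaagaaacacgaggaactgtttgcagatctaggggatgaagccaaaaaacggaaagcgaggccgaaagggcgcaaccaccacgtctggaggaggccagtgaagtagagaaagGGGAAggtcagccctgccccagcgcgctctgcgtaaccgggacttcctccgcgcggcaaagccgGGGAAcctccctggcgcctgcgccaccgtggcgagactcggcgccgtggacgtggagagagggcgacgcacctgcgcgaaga

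CSNK2B held 1 match, which begins 15 bases before the start site of its window, and CSNK2A2 held 1. The CSNK2B window lies inside the listed span of that gene, which starts at 31665236. It also lies inside the span of the overlapping gene GPANK1, which ends at 31666283. The first PPP1CB window held 3 matches, and its second window, CSNK2A1 and PPP1CC held 0. Among all windows 29.8% hold 2 or more matches. The longer form TGGGAA, which contains GGGAA, occurs in 24.0% of all windows and in 0 of those of these genes. A match of 5 letters is a description of the window and does not show binding.

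The targeted gene and the cell type were checked first. IKZF1 RNA stood at 134, 124 and 105 FPKM in wild type, against 207, 260 and 207 FPKM in the samples labelled IK-KO. Its RNA was therefore higher, not lower, in every library labelled IK-KO (log2 change 0.89, limma adjusted p 0.00295), and the edit itself cannot be read from these tables. The study checked the knockout by PCR and western blot, which are not part of these tables, so IK-KO here stands for the label of a library. The bounds of IKZF1 were wide in IK-KO replicates 2 and 3, at 29.6% and 19.1% from the value, and lay 3.81% to 5.41% from it in the other 4 libraries. All 8 markers of T-ALL passed the filter, and 3 were called higher and 3 lower, or 75% against 19.9% of all tested genes. On the log2 scale CD7 changed by -1.72, CD5 by -1.06 and TAL1 by -0.86, whereas CD1A changed by 0.86, PTCRA by 0.69 and CD3D by 0.44. CD3E and LCK were not called. The FPKM of the 8 markers summed to between 1191 and 1253 in wild type and between 1290 and 1462 in IK-KO. This sum is mostly CD3D, CD3E and LCK and does not show the falls of CD7, CD5 and TAL1. Of 8 markers of B, myeloid and erythroid cells, 0 passed the filter, and their sum stayed between 0.847 and 2.34 FPKM in the 6 libraries. HBB, the beta-globin gene, was listed at 0 in all 6. The listed FPKM summed to between 699352 and 738051 per library, of which between 13.0% and 14.4% was mitochondrial. Each table carries a lower and an upper confidence bound for every FPKM. The bounds lay within 3.39% to 7.67% of the value for the 6 genes, except PPP1CB in wild type replicate 1, where they lay 14.8% away.

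All 6 genes were well expressed, and their order was the same in both groups except for 1 pair. CSNK2B had the highest level, with a mean of 328 FPKM over the 6 libraries, above 98.0% of the tested genes. PPP1CA followed at 165 FPKM. PPP1CC and CSNK2A1, at 118.2 and 117.9 FPKM, overlapped in their ranges. PPP1CB lay at 60.4 FPKM and CSNK2A2 at 38.4 FPKM, the lowest of the 6 and still above 80.4% of the tested genes. Apart from PPP1CC and CSNK2A1, the values of neighbouring genes in this order did not overlap in any library.

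**Figure D1:**
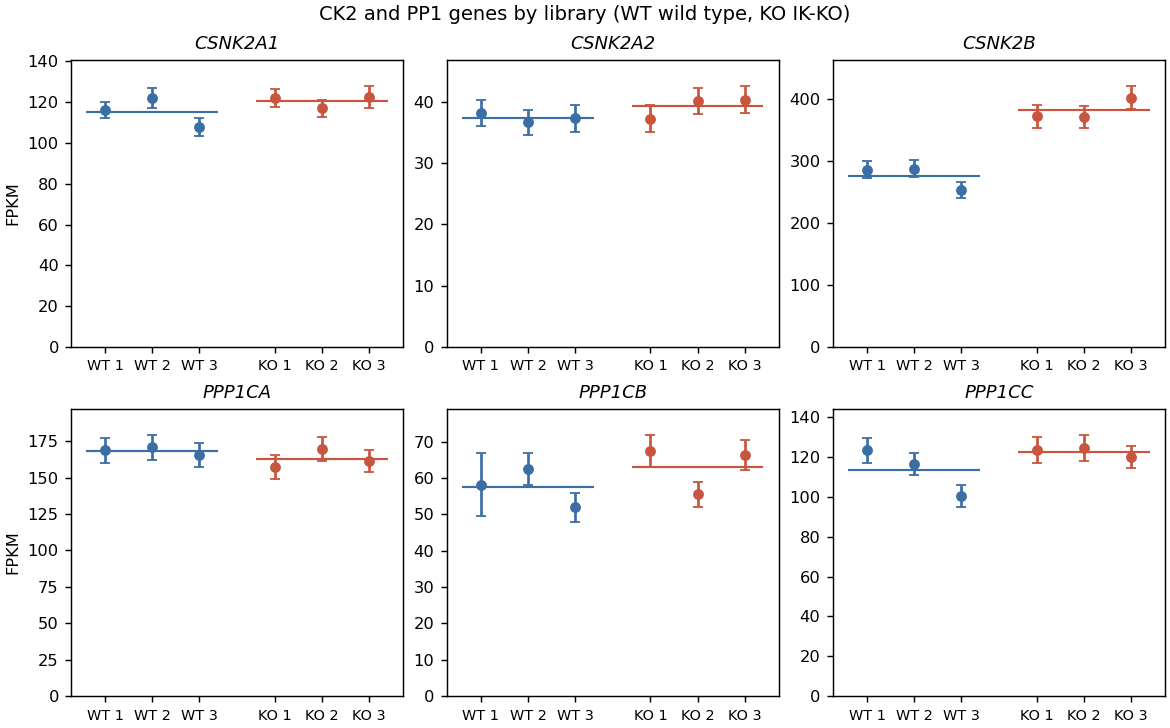
FPKM of the 6 genes in each library, with 1 panel per gene and the vertical axis starting at 0. Points are libraries, error bars are the deposited confidence bounds, and horizontal lines are group means. CSNK2B lies between 253 and 288 FPKM in wild type and between 371 and 402 FPKM in IK-KO, whereas the groups overlap in the other 5 panels.

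Of the 6 genes, CSNK2B, which encodes the regulatory subunit of CK2, rose in IK-KO, and the other 5 were not called. CSNK2B (ENSG00000204435.13; chromosome 6, 31665236 to 31670343, hg38, plus strand) stood at 286, 288 and 253 FPKM in wild type, against 372, 371 and 402 FPKM in IK-KO. Every IK-KO library lay above every wild type library, and the deposited bounds of the groups did not touch, ending at 302 FPKM in wild type and starting at 353 FPKM in IK-KO. These bounds describe precision within a library, not the spread between libraries. The mean rose by 38.5%, from 275 ± 19.6 to 381 ± 17.4 FPKM (SD, n = 3). The log2 change of FPKM + 1 was 0.47 (SE 0.06, 95% interval 0.32 to 0.62), at a limma adjusted p of 0.00307. The alternative that took the spread from each gene alone, with no sharing between genes, did not call it (adjusted p 0.0661 over all tested genes). Among all tested genes 19.9% were called at a limma adjusted p under 0.05 (10.1% higher and 9.75% lower), and the groups did not overlap in 39.0%. Beside this background, 1 of 6 called, and 1 of 6 without overlap, is not a result about the 6 genes as a set.

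The catalytic subunits of CK2 were not called, and their groups overlapped. CSNK2A1 (ENSG00000101266.19; chromosome 20, 472498 to 543835, minus strand) was at 116, 122 and 108 FPKM in wild type, against 122, 117 and 122 FPKM in IK-KO. The lowest value was that of wild type replicate 3, and the groups overlapped. Its log2 change was 0.06, with a 95% interval from -0.07 to 0.20 (limma adjusted p 0.494). CSNK2A2 (ENSG00000070770.9; chromosome 16, 58157907 to 58198106, minus strand) was at 38.2, 36.7 and 37.4 FPKM in wild type, against 37.3, 40.2 and 40.4 FPKM in IK-KO. IK-KO replicate 1 lay inside the wild type range. The log2 change was 0.07, with an interval from -0.07 to 0.20 (limma adjusted p 0.458). CSNK2A3, an intronless copy of the alpha gene on chromosome 11, lay between 0.657 and 1.499 FPKM in the 6 libraries. It shares sequence with CSNK2A1, so the split of fragments between them is uncertain.

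The PP1 catalytic subunits were not called either. PPP1CA (ENSG00000172531.15; chromosome 11, 67398183 to 67421183, minus strand) was at 169, 171 and 165 FPKM in wild type, against 157, 169 and 161 FPKM in IK-KO. It was the only 1 of the 6 genes with a lower mean in IK-KO, by 0.05 on the log2 scale (change -0.05, 95% interval -0.16 to 0.06, limma adjusted p 0.514), and the groups overlapped. PPP1CB (ENSG00000213639.10; chromosome 2, 28751640 to 28802940, plus strand) was at 58.3, 62.7 and 52.0 FPKM in wild type, against 67.4, 55.6 and 66.4 FPKM in IK-KO. IK-KO replicate 2 lay within the wild type range, while the other two lay above it. The log2 change was 0.13, with the widest interval of the 6 genes, from -0.10 to 0.36 (limma adjusted p 0.414). PPP1CC (ENSG00000186298.12; chromosome 12, 110719680 to 110742939, minus strand) was at 123, 117 and 101 FPKM in wild type, against 124, 125 and 120 FPKM in IK-KO. IK-KO replicate 3 lay inside the wild type range. The log2 change was 0.12, with an interval from -0.07 to 0.30 (limma adjusted p 0.343). Wild type replicate 3 was the lowest library for CSNK2A1, CSNK2B, PPP1CA, PPP1CB and PPP1CC among the wild type samples. Its size factor, the median ratio of its FPKM to the mean library, was also the lowest of the 6, at 0.951, whereas the others reached up to 1.02. Without it the change of PPP1CC was 0.03, that of PPP1CB 0.06 and that of CSNK2A1 0.02, while that of CSNK2B was 0.41 and still called (limma adjusted p 0.00767). Without IK-KO replicate 2 the change of PPP1CB was 0.22 and was not called (limma adjusted p 0.171).

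The intervals of the 5 genes that were not called bound what these libraries could have missed. On the fold scale they ran from 0.898 for the lower end of PPP1CA to 1.28 for the upper end of PPP1CB, whereas CSNK2B ran from 1.25 to 1.54. A miss of the threshold does not show that a level was the same in both groups.

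**Figure D2:**
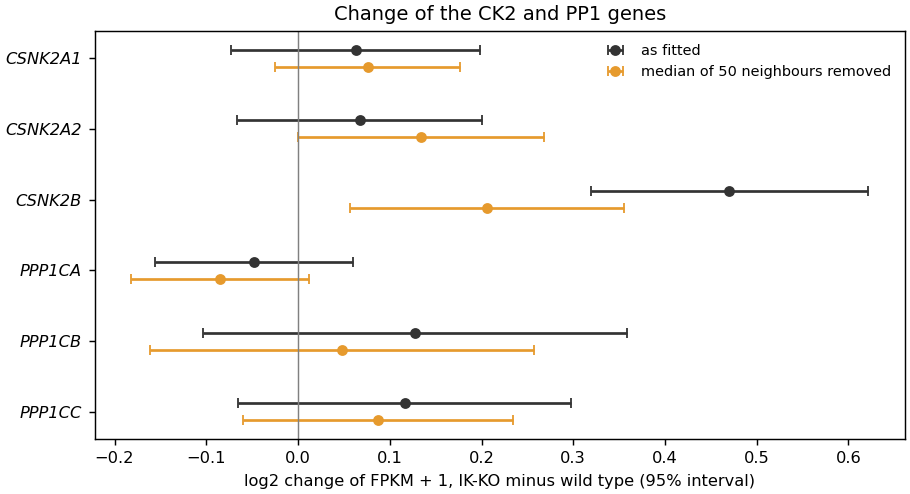
Log2 change of FPKM + 1 (IK-KO minus wild type) for the 6 genes with 95% intervals from limma, as fitted (black) and after removing the median change of the 50 nearest tested genes (orange). As fitted, CSNK2B alone has an interval above 0, at 0.47, and with neighbours removed its value is 0.21.

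Most of the genes around CSNK2B had higher values in IK-KO as well. CSNK2B lies in the class III region of the major histocompatibility complex on chromosome 6, a dense stretch of mostly unrelated genes. Of its 50 nearest tested genes, all within 515 kb, 40 had a positive log2 change, 17 were called higher and 5 lower, and the median change was 0.27. Of all tested genes 10.1% were called higher and 9.75% lower. CSNK2B exceeded 38 of the 50. C6orf47 changed by 0.49 (limma adjusted p 0.00824), ABHD16A, a lipid hydrolase, by 0.51 (limma adjusted p 0.00619) and CLIC1, a chloride channel protein, by 0.46 (limma adjusted p 0.000365). These genes lie within 70 kb of CSNK2B and were named after their values were seen, as were those that follow. Within the same distance PRRC2A changed by 0.03 and AIF1 by -0.05, neither called, and DDAH2 by 0.93 (limma adjusted p 0.000128). The 5 genes called lower included LST1, at -1.12, and LTB, at -0.72. The neighbours of the other 5 genes had medians between -0.06 (CSNK2A2) and 0.10 (PPP1CB). With the median of the 50 neighbours removed in each library, the change of CSNK2B was 0.21 (95% interval 0.06 to 0.36) and was no longer called (limma adjusted p 0.0667, against 18.1% of all tested genes called in that fit). The part of a regional shift in the rise of CSNK2B was not tested beyond this value.

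**Figure D3:**
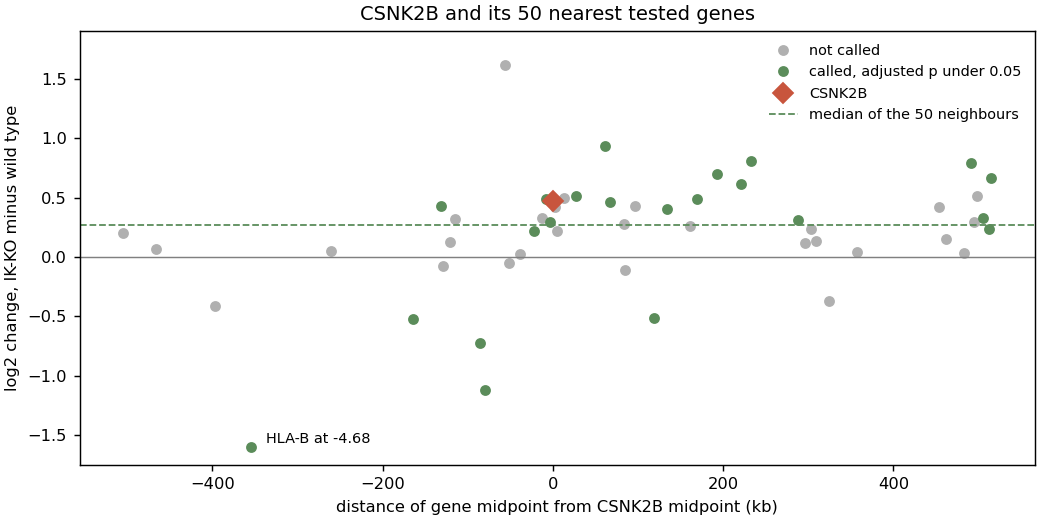
Log2 change (IK-KO minus wild type) of the 50 tested genes nearest to CSNK2B against the distance of their midpoints in kb. Green points are called, grey points are not, the diamond is CSNK2B and the dashed line is the median of the neighbours, 0.27. HLA-B, at -4.68, is drawn at the lower edge, and 40 of the 50 genes lie above 0.

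Genes that overlap the 6 loci were read as well, because no source used here says whether fragments were counted by strand. GPANK1, whose locus runs over the start of CSNK2B, had a mean of 32.4 ± 0.41 FPKM in wild type and of 39.8 ± 0.877 FPKM in IK-KO (SD, n = 3) and was called higher, by 0.29 on the log2 scale (limma adjusted p 0.0082). AL662899.4, which overlaps CSNK2B and LY6G5B, was at 4.23 ± 0.632 and 5.99 ± 0.90 FPKM (SD, n = 3) and was not called (limma adjusted p 0.0809). Without strand, fragments in the shared stretches cannot be assigned with certainty, and their part in the rise of CSNK2B was not tested. At PPP1CA the overlapping gene TBC1D10C, a Ras and calcineurin regulator, changed by -0.81 (limma adjusted p 0.000793), from 37.8 ± 0.98 to 21.2 ± 2.21 FPKM (SD, n = 3), while PPP1CA itself was not called.

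Ratios within a library do not depend on the scaling between libraries, so the balance of subunits was compared next. The catalytic sum of CK2 (CSNK2A1 plus CSNK2A2) divided by CSNK2B was 0.540, 0.552 and 0.574 in wild type and 0.429, 0.423 and 0.405 in IK-KO. The ratio fell from 0.556 ± 0.0171 to 0.419 ± 0.0121 (SD, n = 3) with no overlap, at an exact permutation p of 0.1 (two-sided), the smallest that 3 against 3 libraries allow, and 0.333 after Benjamini-Hochberg adjustment over the 5 ratios compared. This value draws on the same CSNK2B levels and is no separate evidence for them. For the choice of catalytic subunit no difference was detected: CSNK2A2 made up 24.5% ± 1.33 of the catalytic FPKM in wild type and 24.6% ± 1.09 in IK-KO (SD, n = 3, exact permutation p 0.9). Without single libraries the difference of the CSNK2A2 share lay between -0.649 and 0.675 percentage points, and that of the CK2 ratio between -0.144 and -0.127. CSNK2A1 stood at 3.08 ± 0.225 and 3.07 ± 0.183 times the level of CSNK2A2 (SD, n = 3).

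For the balance of the PP1 isoforms no difference was detected, though 3 against 3 libraries could not have reached the threshold. PPP1CA made up 48.1%, 48.8% and 52.0% of the catalytic FPKM of PP1 in wild type and 45.2%, 48.5% and 46.4% in IK-KO (exact permutation p 0.2, adjusted 0.333). PPP1CC made up 33.4% ± 1.79 and 35.2% ± 0.57 (SD, n = 3, exact permutation p 0.2, adjusted 0.333). PPP1CB made up 17.0% ± 0.828 and 18.1% ± 1.92 (SD, n = 3, exact permutation p 0.4, adjusted 0.5). The groups overlapped for each isoform. Leaving out single libraries moved the difference of the PPP1CA share (IK-KO minus wild type) between -3.86 and -1.77 percentage points, that of PPP1CC between 0.931 and 2.72 and that of PPP1CB between 0.526 and 2.25. The summed PP1 level was 339 ± 18.6 FPKM in wild type and 349 ± 0.887 FPKM in IK-KO (SD, n = 3), and that of the 3 CK2 genes was 428 ± 26.4 and 541 ± 20.1 FPKM (SD, n = 3).

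**Figure D4:**
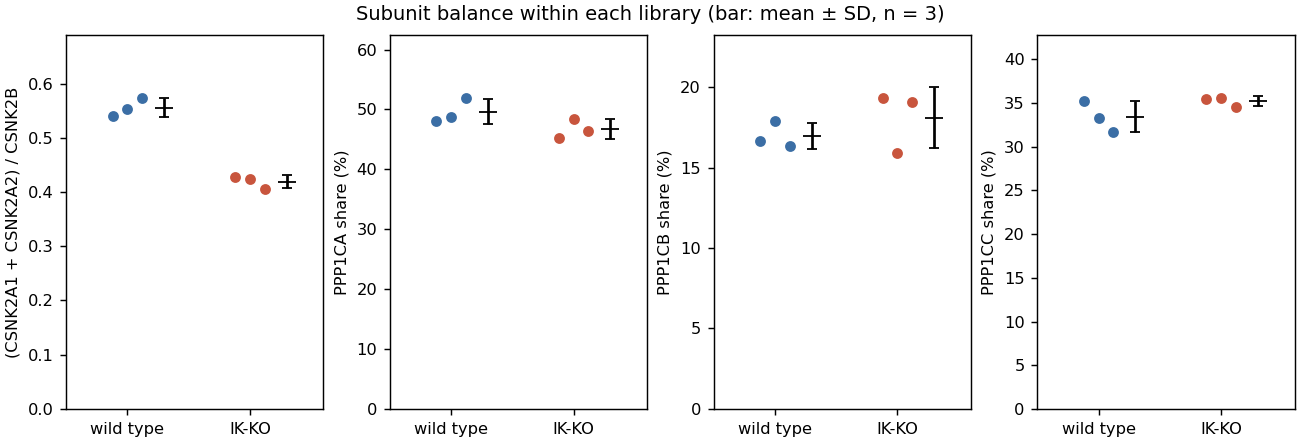
Subunit balance in each library: the FPKM of CSNK2A1 plus CSNK2A2 divided by that of CSNK2B, and the share of each PP1 isoform in their summed FPKM (percent). Points are libraries, bars are means ± SD (n = 3) and all axes start at 0. The CK2 ratio is 0.540 to 0.574 in wild type and 0.405 to 0.429 in IK-KO, whereas the PP1 shares overlap.

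PP1 acts through its regulatory subunits, so 48 of their genes were examined, of which 36 were tested. Of these 11 were called (4 higher, 7 lower), which is 30.6% against 19.9% of all tested genes, and 12 with neighbours removed. This list and those below were drawn up with earlier results of these data known, so no share is a test of a list as a set. The median log2 change of the 36 genes was -0.04, against 0.02 over all tested genes. Of the inhibitors, 4 of 9 were tested and 3 were called, and 2 with neighbours removed. PPP1R14B, a phosphorylation-dependent inhibitor, rose from 154 ± 19.8 to 211 ± 17.9 FPKM (SD, n = 3, log2 change 0.45, limma adjusted p 0.0232). PPP1R11, inhibitor-3, rose from 23.4 ± 0.89 to 28.6 ± 1.13 FPKM (SD, n = 3, log2 change 0.28, limma adjusted p 0.0207). It lies on chromosome 6, and with its neighbours removed its change turned to -0.02 and was not called (limma adjusted p 0.851). PPP1R1C stood at 4.39, 4.79 and 6.47 FPKM in wild type, against 0.803, 2.199 and 0.0474 FPKM in IK-KO (log2 change -1.76, limma adjusted p 0.0188). PPP1R2, inhibitor-2, had a log2 change of -0.04 and was not called (limma adjusted p 0.825). The count of 3 fell to 1 when library 1 or 3 of the wild type group or library 2 of the IK-KO group was left out, and to 0 without IK-KO replicate 1, where 3 kept an unadjusted p under 0.05. Calls over all genes fell as well in the fits that left out a single library.

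Among nuclear partners of PP1, 10 of 10 were tested and 3 were called, or 30% against 19.9% of all tested genes. PPP1R10 (PNUTS), which holds PP1 at RNA polymerase II, rose from 32.3 ± 5.24 to 45.7 ± 2.63 FPKM (SD, n = 3, log2 change 0.50, limma adjusted p 0.0216). It too lies on chromosome 6, and its change with neighbours removed was 0.23 (limma adjusted p 0.212). PPP1R11 and PPP1R10 lie between positions 30066709 and 30717447, as do PPP1R18 and MDC1, called genes of later lists. CSNK2B starts at 31665236, so they lie outside the 515 kb that held its 50 nearest tested genes. The neighbour median removed was 0.30, 0.27, 0.29 and 0.29 for PPP1R11, PPP1R10, PPP1R18 and MDC1. With neighbours removed PPP1R18 went from -0.28 to -0.58 and MDC1 from 0.26 to -0.03. Whether these calls share a regional shift was not tested. The count of nuclear partners with neighbours removed was again 3, because WDR82, named after its values were seen, was called instead (0.16, limma adjusted p 0.044). PPP1R7 (SDS22), which binds the free catalytic subunit, fell from 61.6 ± 8.82 to 46.2 ± 2.42 FPKM (SD, n = 3, log2 change -0.40, limma adjusted p 0.0323). KNL1, which brings PP1 to kinetochores, fell from 20.9 ± 0.885 to 16.3 ± 1.02 FPKM (SD, n = 3, log2 change -0.34, limma adjusted p 0.0182). PPP1R8 (NIPP1), a nuclear inhibitor, had a log2 change of -0.05 and was not called (limma adjusted p 0.712). The count was 1 when library 1 or 3 of the wild type group or any single IK-KO library was left out.

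Of 29 other targeting subunits, 22 were tested and 5 were called, 1 higher and 4 lower. This is 22.7%, near the 19.9% of all tested genes, and the count was 7 with neighbours removed. PPP1R16B, a membrane-bound subunit, was at 6.97, 8.10 and 7.33 FPKM in wild type, against 3.34, 2.91 and 2.24 FPKM in IK-KO. Every IK-KO library lay below every wild type library, and the log2 change was -1.15 (SE 0.14, limma adjusted p 0.00167). PPP1R35, a centriole protein, and PPP1R12A (MYPT1), the myosin phosphatase subunit, fell by 0.39 and 0.32 on the log2 scale (limma adjusted p 0.0413 and 0.0222). TP53BP2 (ASPP2), a p53 partner, rose by 0.50 (limma adjusted p 0.00803). PPP1R15A (GADD34), which directs PP1 to eIF2 alpha, had a log2 change of 0.22 and was not called (limma adjusted p 0.22). Leaving out any single library lowered the count to 2 (library 2 of wild type, or library 2 or 3 of IK-KO) or 3 (the others), while the calls over all genes fell from 2515 to between 1692 and 2004. PPP1R16B and TP53BP2 each kept their call in 14 of 15 alternatives, whereas PPP1R35 kept it in 4.

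Partners and substrates of CK2 formed a list of 23 genes, all tested, of which 5 were called, 4 higher and 1 lower, and 6 with neighbours removed. The share of 21.7% is near the 19.9% of all tested genes, and the median log2 change was 0.10 against 0.02. HDAC2, a histone deacetylase that CK2 phosphorylates, changed most, by 0.79 (limma adjusted p 0.000162), and by 0.56 with its neighbours on chromosome 6 removed. PLEKHO1 (CKIP-1), which binds CK2 alpha, rose from 58.4 ± 2.94 to 84.6 ± 4.95 FPKM (SD, n = 3, log2 change 0.53, limma adjusted p 0.00188) and was called in each of the 15 alternatives. CDC34, a ubiquitin-conjugating enzyme, had a log2 change of 0.28 (limma adjusted p 0.0308) and kept its call in 3 of 15. NOLC1, a nucleolar phosphoprotein, fell from 89.3 ± 5.10 to 73.0 ± 4.75 FPKM (SD, n = 3, log2 change -0.29, limma adjusted p 0.0242). The count was 2 when library 1 or 2 of either group was left out, and 3 without IK-KO replicate 3.

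Genes known as IKAROS targets whose control has been studied together with CK2 were listed too, and of 13 tested 6 were called, 2 higher and 4 lower. This is 46.2% against 19.9% of all tested genes, at a median log2 change of -0.03, and the count was 7 with neighbours removed. The list was drawn up with earlier results of these data known, so this share is no test of the targets as a set. DNTT, the terminal transferase of lymphoid precursors, was at 86.4, 89.7 and 81.6 FPKM in wild type, against 28.0, 24.7 and 26.5 FPKM in IK-KO, with no overlap and a log2 change of -1.66 (limma adjusted p 2.06e-05). TERT, the telomerase catalytic subunit, stood at 1.28, 3.79 and 1.07 FPKM in wild type, against 0, 0.0413 and 0.0194 FPKM in IK-KO, and lost its call in 5 of 15 alternatives. IGLL1, the surrogate light chain gene, fell by 1.06 on the log2 scale (limma adjusted p 0.00776). KDM5B, a histone H3K4 demethylase, rose from 12.7 ± 0.421 to 20.2 ± 1.93 FPKM (SD, n = 3, log2 change 0.62, limma adjusted p 0.00328). BCL2L1, the gene of BCL-XL, rose by 0.29 on the log2 scale (limma adjusted p 0.0195).

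**Figure D5:**
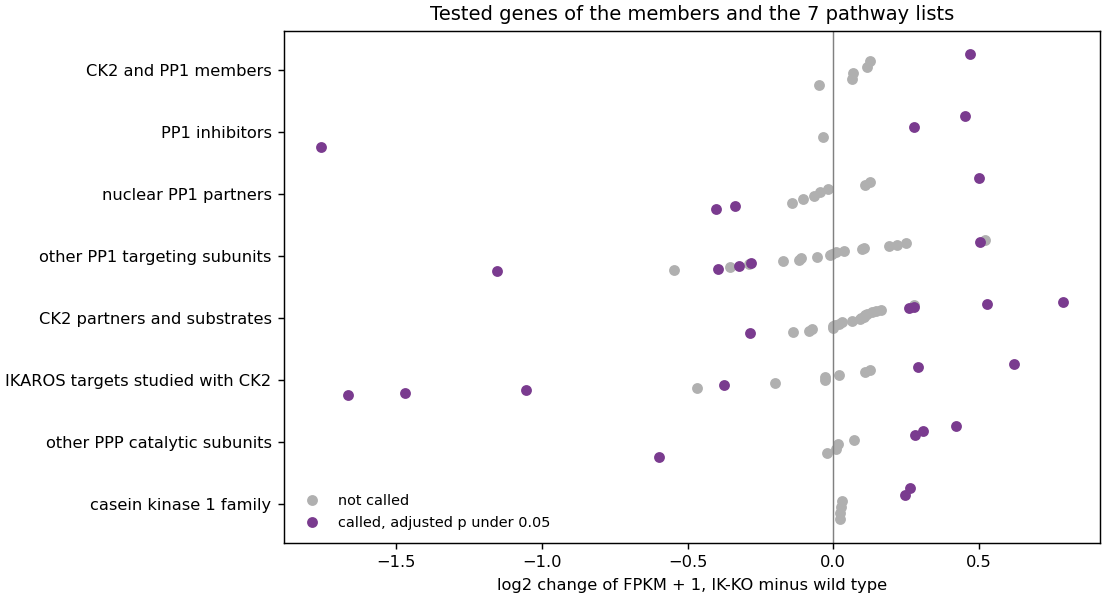
Log2 change of FPKM + 1 (IK-KO minus wild type) of every tested gene among the 6 members and the 7 lists, with each list on its own line. Purple points are called at a limma adjusted p under 0.05 and grey points are not. In the top line CSNK2B, at 0.47, stands apart from the other 5 genes, which lie between -0.05 and 0.13.

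Relatives of the members were compared last. Of the other catalytic subunits of the PPP phosphatase family, 8 of 10 were tested and 4 were called, 3 higher and 1 lower, or 50% against 19.9% of all tested genes, and 2 with neighbours removed. PPP2CA, the main catalytic subunit of PP2A, rose from 136 ± 9.88 to 169 ± 5.92 FPKM (SD, n = 3, log2 change 0.31, limma adjusted p 0.0149), and PPP2CB, its second isoform, rose by 0.28 on the log2 scale (limma adjusted p 0.021). With neighbours removed these changes were 0.18 and 0.21 and were no longer called (limma adjusted p 0.135 and 0.115). PPP3CA, a calcineurin catalytic subunit, rose by 0.42 (limma adjusted p 0.0202). PPP6C, on chromosome 9, fell from 25.4 ± 1.04 to 16.4 ± 0.75 FPKM (SD, n = 3, log2 change -0.60, limma adjusted p 0.0013), and by 0.28 with its neighbours removed (change -0.28, limma adjusted p 0.0411). The count was 1 without IK-KO replicate 2, and 2 when library 1 of either group or library 3 of IK-KO was left out. Casein kinase 1, a separate kinase family with a similar historical name, had 2 of 6 tested genes called, or 33.3%, both higher, and 2 with neighbours removed: CSNK1A1, by 0.26 (limma adjusted p 0.0156), and CSNK1E, by 0.25 (limma adjusted p 0.0116). Leaving out library 1 of either group or library 3 of IK-KO ended the call of CSNK1A1, for a count of 1.

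Genes with the most similar profile were found by the root mean square difference of log2(FPKM + 1), centred on each gene, over the 6 libraries, among 6861 other genes that reached a mean FPKM of 10. CSNK2B was nearest to UBTD2 (0.00966) and TSPAN3 (0.0337), and 27 genes lay within 0.05 of it. CSNK2A1 was nearest to URI1 (0.0148) and YME1L1 (0.0149), and CSNK2A2 to DGUOK (0.0153) and PSMA2 (0.0200). PPP1CA was nearest to MAP3K3 (0.00956) and MYH9 (0.0167), PPP1CB to ERLIN2 (0.0287) and THOC1 (0.0353), and PPP1CC to RPRD2 (0.0199) and SLC38A2 (0.0213). Within 0.05 there were 310 genes for CSNK2A1, 277 for PPP1CA, 147 for CSNK2A2, 89 for PPP1CC and 23 for PPP1CB. With 6 libraries such likeness is a description, and none of the 12 genes is another member.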

How the data were processed

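PolyA RNA of 6 Molt4 libraries was compared, 3 wild type and 3 IK-KO, grouped and numbered by their titles. The authors deposited 1 table per library with FPKM per gene and its confidence bounds, scaled for transcript length and library depth. The submitters' processing notes name STAR 2.6.1c, Cufflinks 2.2.1 and hg38. The annotation and strand setting are not given in the sources used here. No counts are given, so the depth is unknown and the bounds describe precision.

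Rows of 1 identifier were summed and 29 genes with failed estimates were left out. Group differences of log2(FPKM + 1) were fitted by limma 3.58.1 (R 4.3.3, trend, two-sided, Benjamini-Hochberg) for the 12652 genes whose mean FPKM reached 1. This scale understates changes of low genes. Alternatives, Welch's test among them, are given in the closing section. P-values measure the spread between libraries, which may be technical. Ratios used exact permutation tests (scipy 1.17.1). Only the limma and Welch fits were tested on simulated data, with noise independent between genes. Members and lists were chosen with earlier results of these data known. Named were the 6 genes, IKZF1, 8 set regulators, up to 3 called genes per list and direction by size of log2 change, and 2 nearest profiles per gene.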

Additional observations from a re-analysis of the deposited data

How the results depend on the processing

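All 6 changes kept their direction in the 10 alternatives that recompute the change, and the other 5 leave the change as it is by construction. CSNK2B kept its call in 13 of the 15 and lost it in the Welch test (0.47, adjusted p 0.0661) and with neighbours removed (0.21, adjusted p 0.0667), where 0 of the 6 genes were called (1 at an unadjusted p under 0.05). Every tally over the 15, here and above, includes the unreliable fit with no filter and the fit added after seeing the data, both described below. CSNK2B was called in both. Without single libraries its change ranged from 0.41 to 0.50, and the other 5 genes were called in 0 of the 15. The Welch test called 661 genes in all, against 2515 by limma, and among them 0 PP1 inhibitors (2 at an unadjusted p under 0.05), 0 nuclear partners (4 unadjusted), 0 other targeting subunits (8 unadjusted), 3 CK2 partners, 2 IKAROS targets, 1 other PPP subunit and 1 CK1 gene. With no filter on low values, limma warned that most of the variances over 60611 genes were 0, so that fit is unreliable. It called 2255 genes in all, among them 3 targeting subunits, 2 PPP subunits and 1 CK1 gene. A fit over the 27286 genes above 0 in a library was therefore added after seeing the data. It called 2011 genes in all, among them 1 PP1 inhibitor, 1 nuclear partner, 3 targeting subunits, 3 CK2 partners and 4 IKAROS targets. Without a variance trend, 2240 genes were called in all, among them 3 targeting subunits and 3 CK2 partners. Fits without single libraries called 1692 to 2004 genes in all. Among them were 0 to 2 inhibitors, 1 to 3 nuclear partners, 2 to 3 targeting subunits and 2 to 4 CK2 partners. The other lists had 4 to 6 IKAROS targets, 1 to 3 PPP subunits and 1 to 2 CK1 genes. The causes were not tested.

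Same-numbered libraries were not paired by their values, since their departures from the group means had correlations of 0.0669, 0.0248 and 0.00546 over genes. The replicate block left 1805 called genes, CSNK2B among them (0.47, adjusted p 0.0221), and 2 targeting subunits, 2 CK2 partners and 1 CK1 gene. With depth unknown, no limit of detection can be given.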
